A study of Drosophila melanogaster with 2 samples.

Results

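Intergenic binding of the homeodomain protein Engrailed was described from chromatin immunoprecipitation and sequencing (ChIP-seq) lists made from whole Drosophila melanogaster embryos. The embryos were of mixed sex and 0 to 16 h old, and they came from strain 3T-GFP, a transgenic line that stably expresses Engrailed fused at its C-terminus to green fluorescent protein (GFP). The sample description gives anti-GFP as the antibody and the antibody label gives en, and sonication was used to shear the chromatin. There was 1 group of 2 biological replicates, numbered 1 and 3 in the labels, and nothing in the labels says whether their embryos were collected separately, which promoter drives the fusion or whether the line keeps untagged Engrailed. The authors' optimal peak list by the irreproducible discovery rate (IDR), a procedure that keeps regions ranked alike in replicates, held 2226 peaks in genome build dm6. A peak was called intergenic when its summit lay outside every annotated gene body and more than 500 bp from every transcription start site (TSS), with Ensembl BDGP6 genes and without transposable elements. That left 283 of the 2226 peaks, or 12.7% (95% exact binomial interval 11.4 to 14.2). The other IDR peaks were 1098 promoter peaks, with a summit within 500 bp of a TSS, 789 intronic peaks, 50 in untranslated or noncoding exons and 6 in coding exons. Placing the summits on the RefSeq annotation gave the same 283 members.

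Engrailed is best known as a segment polarity protein. It is made in the posterior compartment of each segment, in parts of the nervous system and in the hindgut, and it binds DNA through a homeodomain that prefers sites with a TAAT core and mostly represses transcription. Many enhancers and silencers of Drosophila developmental genes, among them Polycomb response elements, lie in the intergenic sequence between genes, where a bound protein can act on a start site at some distance. A whole embryo holds many cell types, so strong binding in few cells and weak binding in many cells cannot be told apart in these data. The lists give no read depth, and no control library was analysed here. Each region carries the authors' signal value, on a scale that the labels and files do not state, and it is used below to order and describe regions. With 1 group, no test between conditions was possible, and no test was made of the differences between classes of regions given below. The intervals cover counting error only.

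The sequences below are the 101 bp centred on a summit, read from the plus strand of the RefSeq release 6 assembly, which has the dm6 coordinates. Capitals mark matches, on either strand, to any of 21 short motifs searched. The first set holds 4 of the 6 strongest intergenic peaks and is shown because these summits differ widely in base composition. None holds the homeodomain core, which only 5.65% of all intergenic peaks held.
lncRNA:CR45641 and lncRNA:CR45643, chr3R:16222435-16222535: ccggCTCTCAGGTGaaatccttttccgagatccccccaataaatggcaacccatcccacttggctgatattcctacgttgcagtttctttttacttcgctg
C15 and sp3, chr3R:21520325-21520425: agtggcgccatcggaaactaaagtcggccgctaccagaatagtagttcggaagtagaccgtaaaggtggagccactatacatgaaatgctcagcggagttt
jp and lncRNA:CR44149, chr2L:9567459-9567559: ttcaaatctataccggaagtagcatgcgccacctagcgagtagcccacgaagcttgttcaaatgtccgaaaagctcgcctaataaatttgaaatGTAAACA
COX7AL2 and CG31668, chr2L:2202340-2202440: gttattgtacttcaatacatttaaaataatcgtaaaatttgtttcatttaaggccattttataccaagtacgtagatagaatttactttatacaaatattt
Their pooled signals were 535, 368, 356 and 335 in that order. G+C was 48.5% in the first and 49.5% in the second of these windows, 42.6% in the third and 21.8% in the fourth. The first held GAGAG, the letters bound by GAGA factor, overlapping the E-box CAGGTG by 1 base, and the third held TGTTTAC, a forkhead site, at its edge. The other windows of this set held no listed motif.

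The next set holds the 3 strongest intergenic peaks whose 101 bp window held TAATTA, the homeodomain core and the site class to which Engrailed binds in vitro.
lncRNA:CR45303 and lncRNA:CR45693, chr2L:14502728-14502828: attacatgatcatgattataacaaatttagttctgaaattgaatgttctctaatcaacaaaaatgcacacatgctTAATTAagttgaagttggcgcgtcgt
CG43245 and lncRNA:CR44544, chr3L:10776509-10776609: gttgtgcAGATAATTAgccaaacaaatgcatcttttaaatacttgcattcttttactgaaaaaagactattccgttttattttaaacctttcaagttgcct
by and mura, chr3R:9534265-9534365: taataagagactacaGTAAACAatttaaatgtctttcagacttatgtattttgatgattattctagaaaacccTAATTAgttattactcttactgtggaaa
The pooled signals were 197 for the peak between lncRNA:CR45303 and lncRNA:CR45693, 152 for the peak between CG43245 and lncRNA:CR44544, and 151 for the peak between by and mura. In the second sequence the core overlapped a binding site of GATA factors, AGATAA, and in the third a forkhead site lay in the same window. The core lay 27.5, 37.5 and 25.5 bp from the summit in these 3 windows, counted to its middle. None of the 20 strongest intergenic peaks was among the peaks with TAATTA, which were only 16 of all 283 members (5.65%).

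One further sequence is shown because it is the summit window between sloppy paired 1 and sloppy paired 2 (slp1 and slp2), neighbouring segment polarity and pair-rule genes that encode forkhead repressors.
slp1 and slp2, chr2L:3832472-3832572: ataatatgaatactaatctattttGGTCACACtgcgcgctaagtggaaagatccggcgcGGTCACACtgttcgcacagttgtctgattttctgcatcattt
This window held 2 copies of GGTCACAC, the site of the core promoter factor M1BP, and it was the 1 intergenic peak of 283 with that motif. The summit lay 4318 bp from the nearest TSS, that of slp2.

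The strongest intergenic peak lay beyond the 3′ end of Suppressor of zeste 2, Su(z)2, a Polycomb-group gene. It spanned 2R:13035170-13035511 with its summit 27413 bp from Su(z)2 and 11932 bp from the TSS of CG13323. Its signal was 243 in replicate 1, 386 in replicate 3 and 625 in the pool, where it ranked 14 of all 2226 IDR peaks. Posterior sex combs (Psc), the paralogue of Su(z)2 and like it a component of Polycomb repressive complex 1, was flanked by 2 intergenic peaks of pooled signal 225 and 73.0. The 3 peaks spanned 77.0 kb. Between the outermost of them lay an intronic IDR peak of pooled signal 181 and a promoter IDR peak of 141. The same span held 36 regions outside the IDR list, the highest at 62.4, and such regions are lower by the choice of the list. This Polycomb-group gene pair thus had both the strongest intergenic peak and one of the weak ones.

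The second strongest peak lay 910 bp from the nearest TSS of the long noncoding RNA (lncRNA) gene lncRNA:CR45643, at 3R:16222335-16222638. Its signal was 186 in replicate 1, 342 in replicate 3 and 535 in the pool. Another peak lay on the other side of the same gene, 920 bp from a different annotated TSS of it. This peak stood between that gene and taranis (tara), a trithorax-group gene. It had signals of 105, 185 and 288 in the same order of lists. Both replicates ranked the first of these peaks above the second. The third strongest, at 2R:22802816-22803114, lay between bellwether (blw), which encodes a subunit of mitochondrial ATP synthase, and Cyclin B (CycB), which drives entry into mitosis. Its signals were 177, 314 and 493, in a gap of only 1340 bp between the converging ends of both genes. The peak between C15, a homeobox gene of leg patterning, and sp3 had signals of 149 in replicate 1, 218 in replicate 3 and 368 in the pool, 553 bp from the sp3 TSS. The peak next to junctophilin (jp) had 159, 195 and 356, and the peak between COX7AL2 and CG31668 had 163, 179 and 335. In each of these 6 peaks replicate 3 had the higher value.

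The members ranked 7 to 20 by pooled signal had values from 227 to 332. In falling order, their flanking genes were lncRNA:CR44603 and lncRNA:CR45695 upstream of chinmo, CG43131 and RabGGTa, FBtr0445478_df_nrg and lncRNA:CR43437 on chromosome 4, RasGAP1 and CG10809, then lncRNA:CR45643 and tara as above. They were followed by CG14762 and mir-4981, slp1 and slp2, CG17896 and CG17778, CG3149 and lncRNA:CR42794, Glut3 and lncRNA:CR45750, and lncRNA:CR45411 and lncRNA:CR43785. The last were Atg13 and stck, Sol1 and Cyp9f2, and Asator and zfh2 on chromosome 4. Among these neighbours are genes of varied function, such as the autophagy gene Atg13, the Ras GTPase-activating gene RasGAP1, the glucose transporter gene Glut3, the integrin adhesion gene stck and the zinc-finger homeodomain gene zfh2. Of the 20 strongest, 8 were flanked by an lncRNA gene, 8 lay within 1 kb of a TSS and 7 held a listed motif. Over all 283 members, 44.9% had an lncRNA flank, 21.9% lay within 1 kb of a TSS and 61.8% held no listed motif. The values of the 20 strongest ran from 88.5 to 243 in replicate 1 and from 107 to 386 in replicate 3. Replicate 3 was higher in 18 of the 20. The exceptions were the peak of CG14762 and mir-4981, with 172 in replicate 1 and 113 in replicate 3, and that of Asator and zfh2, with 117 and 107. All 20 were among the 2226 strongest regions of both replicates.

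The intergenic peaks reached from the weakest of the IDR list to 625, below its highest value of 1022. Their pooled signals ran from 65.1 with a median of 92.7 (quartiles 75.4 and 136), beside medians of 95.1 in introns, 100 at promoters and 97.5 over all IDR peaks. In replicate 1 the median was 39.3 (29.7 to 57.0) and in replicate 3 it was 56.9 (45.0 to 80.7). The 100 strongest IDR peaks held 12 intergenic ones, and 68 of the 283 (24.0%) were among the 556 strongest of the list. The deposited regions had a full width of 396 bp in 221 members and were narrower in 62 (21.9%). Narrower regions made up 21.5% of promoter, 16.2% of intronic and 19.6% of all IDR peaks, so they are not particular to the members. Among the members the narrower regions had a median signal of 182 and the full-width ones 83.2, and all 20 of the strongest were narrower. Of all 30000 pooled regions, 7.42% were in the IDR list, and of the 4566 intergenic ones 6.2% were, a share that the choice of members itself uses. The 4242 intergenic regions that overlapped no IDR peak had a median signal of 23.0 and a highest value of 65.1.

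**Figure D1:**
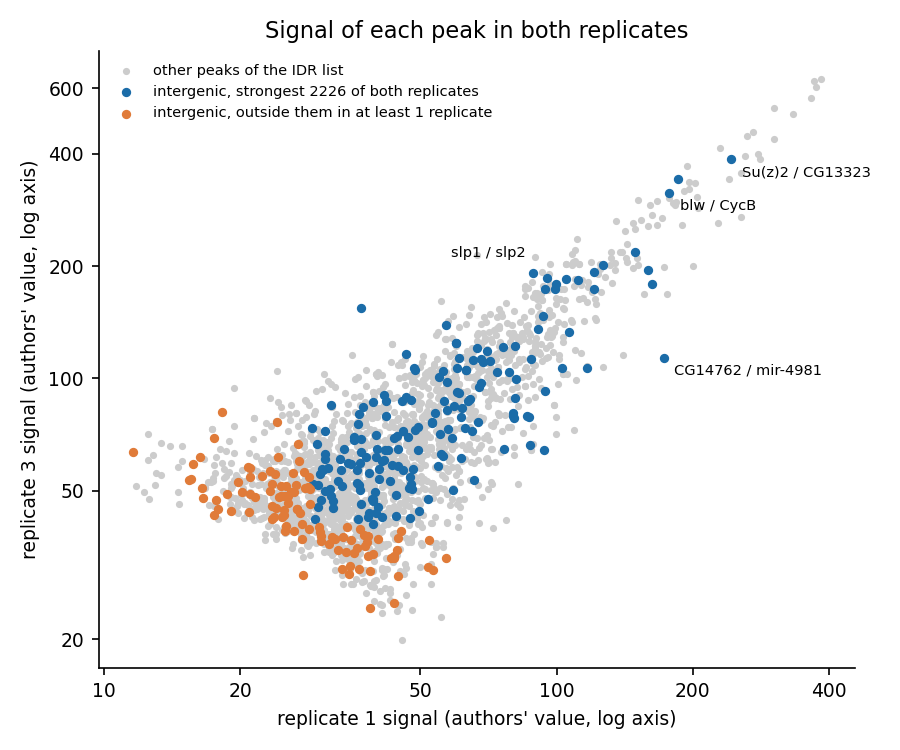
Authors' signal of each IDR peak in replicate 1 (x) and replicate 3 (y), both on log axes. Blue points are the 175 intergenic peaks among the 2226 strongest regions of both replicates and orange points are the intergenic peaks outside them in at least 1 replicate; the 2 members without a replicate 3 region are not drawn. The Su(z)2 and CG13323 peak stands highest among the intergenic peaks, at 243 and 386, and the labelled slp1 and slp2 peak lies at 95.4 and 186.

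The replicates shared most intergenic peaks, like most IDR peaks, among their strongest regions. Of the 283, 175 overlapped by at least 1 bp a region among the 2226 strongest of replicate 1 and another among the 2226 strongest of replicate 3. That is 61.8% (95% exact interval 55.9 to 67.5), beside 69.5% over all 2226 IDR peaks, 69.2% (65.8 to 72.4) of intronic and 71.5% (68.7 to 74.1) of promoter peaks. A further 61 were among the strongest of replicate 3 only, 42 of replicate 1 only and 5 of neither. Of the 141 members of highest pooled signal, 136 were among the strongest of both replicates, and of the other 142 members 39 were. Since the IDR list held the 2226 regions of highest pooled signal, a member can enter it through 1 replicate.

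Replicate 3 had the higher value in 237 of the 281 members with a region in both lists and replicate 1 in 44. The median log2 ratio of replicate 3 to replicate 1 was 0.62 with a standard deviation of 0.55 over peaks, and over all IDR peaks it was 0.60 with 0.52. The lists may differ in scale, so this is no measure of binding. Across these 281 peaks log2 signals of the replicates had a Pearson correlation of 0.697 and a Spearman correlation of 0.599, given as a description of peaks from the same pair of libraries. No member lacked a replicate 1 region. The 2 without a replicate 3 region lay between Sid and snu (3R:28672311-28672460, 75.1 in replicate 1, 162 in the pool) and between lncRNA:cherub and lncRNA:CR31386 (3R:11269037-11269432, 48.4 in replicate 1, 116 in the pool). Another 6 members shared their replicate 1 region with a neighbouring member, and 6 shared their replicate 3 region, so their replicate values are not separate measurements.

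The intergenic summits lay from 505 to 36654 bp from the nearest TSS, with a median of 2178 bp (quartiles 1172 and 5417), where the lower end is set by the rule. The intergenic regions outside the IDR list had a median of 2900 bp. Of the members, 62 lay within 1 kb of a TSS, 65 at 1 to 2 kb, 81 at 2 to 5 kb, 48 at 5 to 10 kb and 27 beyond 10 kb. The median pooled signal of these bins was 81.8, 96.5, 94.7, 99.3 and 88.1. Strong and weak peaks were thus found at all distances, and the strongest member was itself more than 10 kb from a TSS. The 5 farthest members were 3 peaks in the gap of 75047 bp between NijA and CG43245 on 3L, 1 beside ventral veins lacking (vvl), a POU homeodomain gene of the trachea and the brain, and 1 beside ocelliless (oc), the head gap gene that encodes Orthodenticle. Their distances were 36654, 31876 and 26090 bp in the NijA gap, 26211 bp at vvl and 15806 bp at oc, and their pooled signals were 75.6, 164, 82.4, 88.1 and 80.5 in the same order. In replicate 1 these 5 had signals of 25.1, 56.1, 36.8, 28.3 and 40.3, and in replicate 3 they had 48.3, 105, 50.3, 54.5 and 37.2. Only the peak of 164 among them stood above the median intergenic peak.

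**Figure D2:**
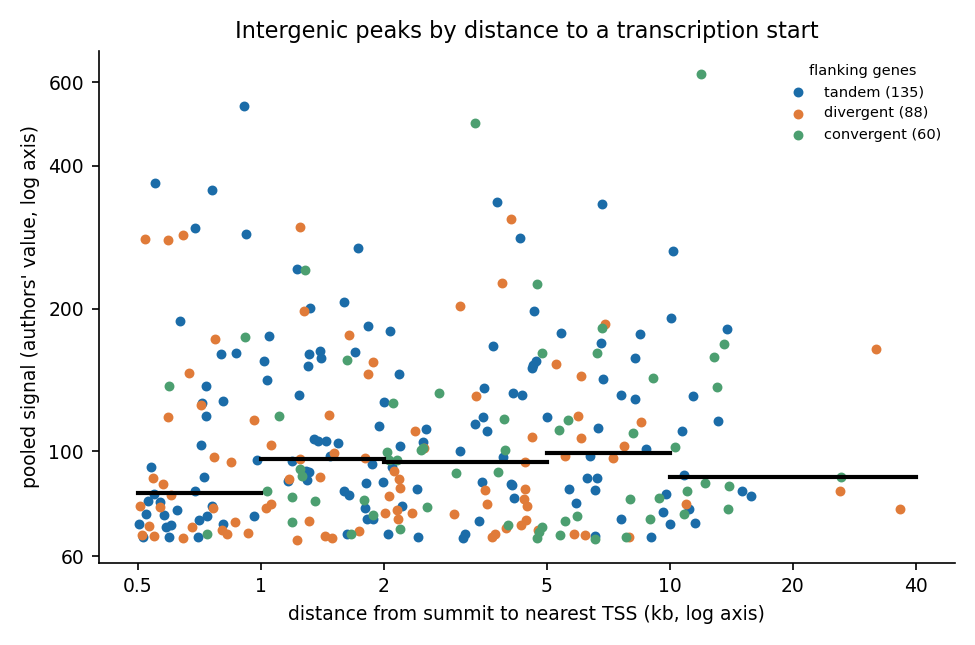
Pooled signal of the 283 intergenic peaks (y, log axis) against the distance of the summit to the nearest TSS in kb (x, log axis), coloured by the strands of the flanking genes. Black bars are the median signals of the distance bins, from 81.8 in the nearest bin to 99.3 at 5 to 10 kb, and points of all 3 colours are spread over the range of distances.

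The genes on either side were in tandem for 135 members (47.7%, interval 41.8 to 53.7), divergent for 88 (31.1%, 25.7 to 36.8) and convergent for 60 (21.2%, 16.6 to 26.4). Outside the IDR list the shares were 51.1%, 25.9% and 22.9%. The median signal was 101 in tandem, 84.3 in divergent and 90.2 in convergent gaps. The gap between the flanking genes had a median length of 8939 bp, from 377 to 75047, and outside the IDR list the median was 10920 bp. A gene's 3′ end lay within 500 bp of the summit for 48 members (17.0%), in a window the rule does not bar. This was not counted for the regions outside the list, so it is not read as a trait of the members. An lncRNA gene flanked 127 members (44.9%, 38.99 to 50.9) and 44.6% of the regions outside the list, and lncRNA genes stood on both sides of 37 members (13.1%, 9.38 to 17.6) and of 8.65% of the regions outside. A transfer RNA (tRNA) gene flanked 11 members (3.89%, 1.96 to 6.85), beside 3.11%, and a protein-coding gene 240 (84.8%, 80.1 to 88.8), beside 89.9%. Of these intervals, those for lncRNA genes on both sides and for a protein-coding gene did not hold the share found outside the list, and the others did. Peaks in 1 gap share their neighbours, so these counts are not independent.

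Intergenic peaks were spread unevenly over the chromosomes. Per Mb of sequence that meets the rule, arm 2L had 12.7 members (85 in all, 95% exact Poisson interval 10.1 to 15.7) and 3L had 8.82 (79 in all, 6.98 to 11.0). Arm 3R had 6.79 (52 in all, 5.07 to 8.91), X had 5.53 (29 in all, 3.70 to 7.94) and 2R had 4.43 (33 in all, 3.05 to 6.22). The small chromosome 4 had 5 members, or 20.4 per Mb with a wide interval of 6.62 to 47.6. The intervals of 2L and 2R did not overlap. They treat each peak as independent, although some peaks, among them several on 2L, stood in groups, so this is no test of a difference. The sequence counted was all of each arm outside genes and promoter windows, with transposable elements included. The members of lowest coordinate had summits at 715581 on 2L, 7478763 on 2R and 4846989 on 3R. Whether the arms differ in how much of this sequence can give a region was not tested. Regions outside the IDR list also differed between arms, from 89.4 per Mb on X and 89.7 on 2R to 136 on 2L, 140 on 3L and 294 on chromosome 4. As a share of members and outside regions together, the members were 8.50% on 2L and 4.71% on 2R, with the other arms between 5.70% and 6.49%. The embryos were of mixed sex, and values on the X were not corrected for its copy number.

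**Figure D3:**
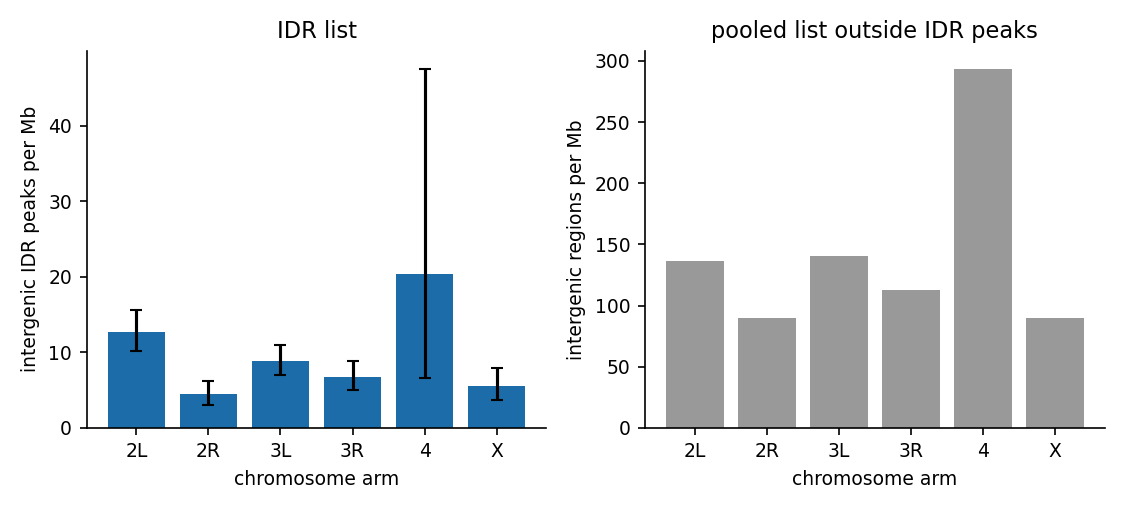
Left, intergenic IDR peaks per Mb of sequence that meets the rule on each chromosome arm, with 95% exact Poisson intervals as error bars. Right, intergenic regions outside the IDR list per Mb, without intervals. Arm 2L stands at 12.7 and arm 2R at 4.43 on the left, and chromosome 4 has the highest bar on both sides with 5 members.

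Some intergenic peaks stood close together. Joining summits no more than 5 kb apart gave 30 groups of neighbouring intergenic peaks, 23 of 2, 5 of 3 and 2 of 4 members, and left 214 single peaks. Another member lay within 5 kb of 69 of the 283 (24.4%, 19.5 to 29.8), any other IDR summit within 5 kb of 95 (33.6%, 28.1 to 39.4), and a promoter IDR summit within 5 kb of 27 (9.54%, 6.38 to 13.6). Most intergenic peaks thus had no promoter peak within this distance. These counts were not made for other IDR peaks or for regions outside the list, so closeness is not read as particular to the members. The 283 peaks fell into 238 gaps between genes, of which 34 held more than 1.

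One group of 4 lay between lncRNA:CR44363 and CG7560, at summits from 3L:11416952 to 11418584. Its pooled signals were 158, 131, 169 and 82.9 from left to right, with 80.9, 47.7, 63.2 and 63.2 in replicate 1 and 88.7, 87.5, 105 and 105 in replicate 3. The last 2 shared their replicate regions, so this group has 3 separate measurements per replicate. The other group of 4 lay around Rh5, which encodes a light-sensing rhodopsin of the larval and adult eye, at summits from 2L:12004327 to 12012359. Its pooled signals were 80.4, 99.0, 69.2 and 86.4, with 29.6, 28.8, 44.5 and 39.2 in replicate 1 and 45.2, 73.8, 29.6 and 46.8 in replicate 3. The third peak of this group was the highest in replicate 1 and the lowest in replicate 3, so the order differed between replicates. A group of 3 lay between COX7AL2, which encodes a cytochrome c oxidase subunit-like protein, and CG31668, at summits from 2L:2199314 to 2202390. Its pooled signals were 157, 114 and 335, with 60.4, 36.6 and 163 in replicate 1 and 92.2, 80.3 and 179 in replicate 3. The order was the same in both.

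The longest run of strong intergenic peaks noticed, chosen after its values were seen, lay upstream of chronologically inappropriate morphogenesis (chinmo), a BTB zinc-finger gene of neuronal temporal identity. Over 17.4 kb on 2L, from summit 1632839 to summit 1650201, 6 intergenic peaks had pooled signals of 332, 177, 129, 167, 176 and 103 from left to right. In replicate 1 they had 127, 59.9, 59.9, 60.3, 81.5 and 41.6, and in replicate 3 they had 202, 124, 124, 107, 99.6 and 60.5. The second and the third shared their replicate regions. Between the outermost summits lay 14 pooled regions outside the IDR list, of which the highest reached 56.1. The IDR list held the regions of highest pooled signal, so members stand above regions outside it at every locus. All 6 were among the 2226 strongest regions of both replicates. The nearest of them to chinmo was 1057 bp from its TSS.

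**Figure D4:**
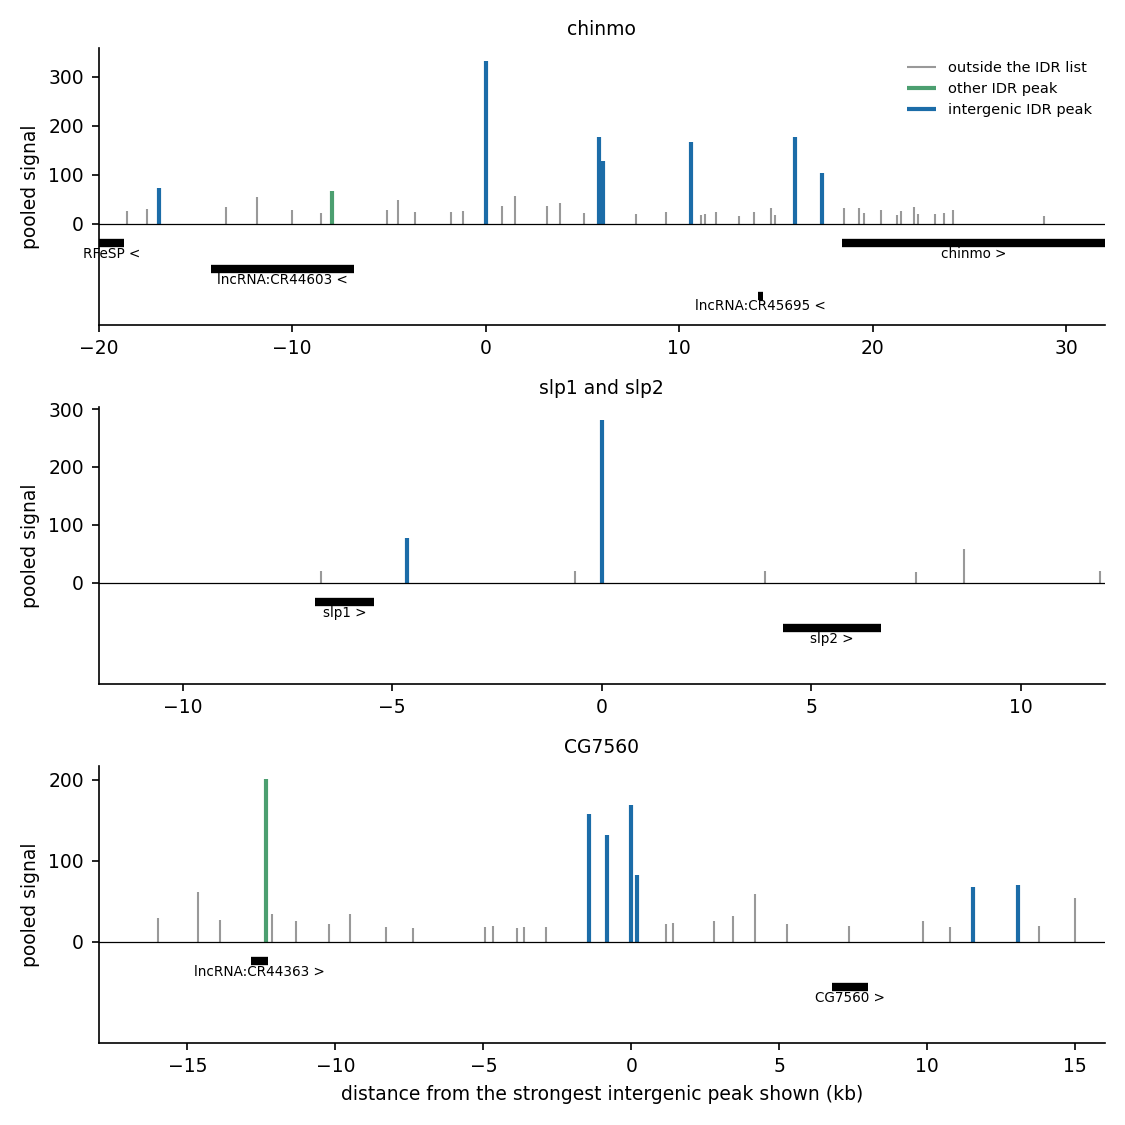
Pooled signal (y) of all regions of the pooled list around chinmo (top), slp1 and slp2 (middle) and CG7560 (bottom), against the distance in kb from the strongest intergenic peak shown (x), with genes as black bars whose arrowheads give the strand. Blue lines are intergenic IDR peaks, green lines other IDR peaks and grey lines regions outside the IDR list. The 6 peaks upstream of chinmo reach from 103 to 332 and the highest grey line between them 56.1. Grey lines are lower than the others by the choice of the list.

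Genes were assigned to a peak only as the nearest gene to its left and to its right, which does not say which gene a peak acts on. Of 18164 annotated genes, 453 (2.49%) flanked an intergenic IDR peak. Genes in long gaps have more intergenic sequence to hold a peak, and the median length of the larger gap beside a gene, 2038 bp over all genes, is given below for each list. The lists differed widely in it, from 815 to 26193 bp, and no test was made of any list's count against the share of all genes. Where 3 signals stand in brackets or in a row after a gene, they are those of replicate 1, replicate 3 and the pool, and a single value is that of the pool.

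Among the segment polarity genes, which set the pattern within each segment, 6 of 21 flanked an intergenic peak: H15, midline (mid), patched (ptc), slp1, slp2 and wingless (wg). Their median larger gap was 8183 bp. The slp1 and slp2 genes shared 2 peaks in their common gap. The stronger had signals of 95.4 in replicate 1, 186 in replicate 3 and 281 in the pool, and the weaker, 2211 bp from the slp1 TSS, had 24.7, 48.5 and 76.6. Both were higher in replicate 3, and 1 region between them was outside the list at 20.02. The T-box gene mid, which regulates wingless expression, had a peak of 70.2 and 118 in the replicates and 191 in the pool, 9238 bp away. Its paralogue H15 had one of 30.0 and 55.4, and 87.7 in the pool. The peak 5274 bp upstream of ptc, which encodes the Hedgehog receptor, had 54.9 and 101 in the replicates and 153 in the pool. This ptc peak was the 1 found among 14 Hedgehog pathway genes, so hh itself had none. The ligand genes wg and Wnt4 shared 2 peaks of pooled signal 83.2 and 77.3. The stronger had 24.2 in replicate 1 and 61.7 in replicate 3 and lay 25547 bp from wg, closer to Wnt4, and these were the only flanked genes of 26 in the Wnt pathway.

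Of 9 pair-rule genes, which divide the embryo into alternate segments, 4 flanked a peak, odd, opa, slp1 and slp2, with a median larger gap of 9740 bp. The zinc-finger genes odd and opa had peaks of 97.2 and 67.0 in the pool, with 33.2 and 60.9 in the replicates for odd and 25.2 and 40.2 for opa. Of 16 gap and maternal patterning genes, 4 flanked a peak, with a median larger gap of 26193 bp for this list. They were ems and oc, homeodomain genes of the head, kni, a nuclear receptor-like gene, and croc, a forkhead gene of the head. Their strongest peaks had pooled signals of 137 for ems, 107 for oc, 105 for kni and 79.4 for croc. In replicate 1 these peaks had 62.6, 42.4, 45.8 and 27.8 and in replicate 3 they had 73.5, 64.2, 56.9 and 50.9. Of the 14 Hox, related and cofactor genes, only homothorax (hth), which encodes a Hox cofactor, flanked a peak (36.6, 51.7 and 85.3), and no Hox gene of the list did. The median larger gap of that list was 5096 bp.

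Among 65 other homeobox genes 12 flanked a peak: Awh, C15, Dr, ems, mirr, oc, otp, toy, tup, vvl, zfh1 and zfh2, with a median larger gap of 11235 bp. The strongest were at C15 (368), zfh2 (227), ems (137) and tup (131), the last a LIM homeodomain gene of the heart and motor neurons with 53.1 in replicate 1 and 75.8 in replicate 3. The T-box list had 3 of 8, Doc2, H15 and mid, and Doc2, one of the Dorsocross genes of the amnioserosa and the heart, had 2 peaks of 145 and 112. The forkhead list had 6 of 17: FoxL1, bin, croc, foxo, slp1 and slp2. Its foxo peak had 41.8 and 64.4 in the replicates and 107 in the pool. The median larger gap was 10820 bp in the T-box list and 9364 bp in the forkhead list. In the odd-skipped family 1 of 4, odd itself, flanked a peak, with a median larger gap of 9956 bp. Of 9 Sox and HMG genes, Sox21a, Sox21b and SoxN flanked a peak, and Sox21a and Sox21b shared one of 49.3, 74.0 and 118. Of 25 nuclear receptor and ecdysone-response genes 3 did, Hr51 (67.4, 95.1 and 160), kni and Blimp-1 (21.0, 57.6 and 82.8), and the Hr51 peak was shared with the netrin receptor gene unc-5. The Blimp-1 peak ranked 4139 in replicate 1 and 1144 in replicate 3, so it was strong in replicate 3 only. The same held for other peaks of these lists, such as those of lola (2513 and 871) and SoxN (4230 and 1137). The nerfin-1 peak, at 976 and 3211, was strong in replicate 1 only. Over all members, 61 were strong in replicate 3 only and 42 in replicate 1 only. Of 45 zinc-finger transcription factor genes 7 flanked a peak: disco-r, lmd, lola, nerfin-1, odd, opa and wor, with pooled signals up to 97.9 at lola. Of 49 bHLH and neural regulator genes 2 did (4.08%, beside 2.49% of all genes), nerfin-1 (43.7, 33.5 and 80.7) and wor (24.0, 45.0 and 68.4), and none of the 6 GATA factor and u-shaped genes. The median larger gap was 7296 bp for the Sox, 2846 bp for the nuclear receptor and 8699 bp for the zinc-finger list, and 4940 bp for the bHLH and 4823 bp for the GATA list.

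In the signalling lists the share of genes with an intergenic peak was 15.4% for Notch, 8.33% for EGFR and FGF, 7.69% for Wnt, 7.14% for Hedgehog and 4.55% for Dpp and BMP, beside 2.49% of all genes. Their median larger gaps were 2635, 3808, 4104, 1229 and 1778 bp in that order. Of 26 Notch pathway and Enhancer of split genes 4 flanked a peak: the Bearded-family genes E(spl)malpha-BFM (59.3, 84.4 and 145) and Tom (27.3, 40.8 and 66.3), the glycosyltransferase gene fng (19.1, 44.1 and 67.0) and the ligand gene Ser (33.5, 30.8 and 66.0). The last 3 were close to the lowest pooled signal of the list, 65.1. Of 24 EGFR and FGF pathway genes, sprouty (sty), an inhibitor of receptor tyrosine kinase signalling, and anterior open (aop), an ETS-domain repressor of that pathway, each had 2 peaks. Those of sty had pooled signals of 174 (71.1 and 111 in the replicates) and 95.9 (30.7 and 62.6), and those of aop 119 (61.5 and 61.2) and 70.8 (24.9 and 43.1). Of 22 Dpp and BMP pathway genes only short gastrulation (sog), which encodes an extracellular BMP antagonist, had one (40.5, 57.1 and 97.7). Peaks shared by neighbouring genes are counted for each gene.

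Of 25 listed Polycomb-group and trithorax-group genes, 4 flanked an intergenic peak, Psc, Su(z)2, ph-d and ph-p, which lie in 2 pairs of neighbouring paralogues that encode subunits of Polycomb repressive complex 1. The median larger gap of this list was 1325 bp. The trithorax-group gene tara is not in the list and flanked 2 intergenic peaks, the one of 288 above and one of 89.9 (30.4 and 56.8 in the replicates). The polyhomeotic genes ph-d and ph-p shared a peak between them of 33.5 in replicate 1, 56.7 in replicate 3 and 88.2 in the pool. No gene of the insulator list (13) or the cytoplasmic ribosomal protein list (92) flanked an intergenic peak, and their median larger gaps were 815 and 861 bp. None of 11 glial and midline genes did, 2 of 35 axon guidance genes (unc-5 and the Slit receptor gene robo2, with 101 in the pool), 3 of 17 tracheal and salivary gland genes (hth, kni and vvl) and 3 of 27 muscle genes (bin, lmd and zfh1). The median larger gaps of these lists were 2924, 4715, 9926 and 6011 bp in the same order. One of 260 microRNA genes, mir-4981, 10 of 295 tRNA genes (3.39%) and 123 of 2447 lncRNA genes (5.03%) flanked a peak, with median larger gaps of 4308, 2255 and 6050 bp. The strongest tRNA gene peak, 6966 bp from tRNA:Ile-TAT-1-1, had 68.1 and 113 in the replicates and 185 in the pool.

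Over all 24 lists of regulatory and tissue genes together, 430 genes, 57 of the 283 intergenic peaks had a listed gene as a neighbour. That is 20.1% (95% exact interval 15.6 to 25.3), and of the 4242 intergenic regions outside the IDR list 20.1% (18.9 to 21.3) had one. The shares were equal to 3 digits.

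The homeodomain core TAATTA occurred within 50 bp of 16 of 283 intergenic summits, or 5.65% (3.27 to 9.02), beside 8.37% (6.53 to 10.5) of intronic and 7.65% (6.15 to 9.38) of promoter summits, 7.99% (7.19 to 8.85) of intergenic regions outside the IDR list and 6.65% of all 30000 pooled regions. The extended homeodomain site TCAATTA occurred at 3.53% (1.71 to 6.40), beside 3.37% of intergenic regions outside the list. TAATTA has the same letters on both strands and neither motif contains the other. GAGAG, which GAGA factor binds, occurred at 11.3% (7.86 to 15.6), beside 10.7%, and the GATA site AGATAA at 5.65% (3.27 to 9.02), beside 6.51% and 9.63% of intronic summits. The forkhead site TGTTTAC occurred at 3.18% (1.46 to 5.95), beside 2.07% of intergenic regions outside the list and 6.34% (4.74 to 8.27) of intronic summits. Over the 21 motifs, the interval of the intergenic peaks held the share of the intergenic regions outside the list for 19. The other 2 were the Bicoid-type homeodomain site GGATTA, at 1.06% (0.219 to 3.07) of members and 3.16% outside, and the repeat CACACACA, at 0.353% (0.00895 to 1.95) and 2.10%, both lower in the members. CACACACA was also at only 1.14% of intronic and 1.00% of promoter summits, so its low share is not particular to the members. GGATTA was at 2.92% of intronic and 4.01% of promoter summits. The intervals were not corrected for the number of motifs.

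Letters typical of core promoters were rare. TATCGATA, the site of the replication-related element factor DREF, occurred at 0 of 283 intergenic summits (interval up to 1.30%) and at 3.28% (2.31 to 4.51) of promoter summits. GGTCACAC occurred at 1 intergenic summit (0.353%) and at 1.64% (0.974 to 2.58) of promoter summits. Both were also rare at intronic summits (0.380% and 0.127%) and in intergenic regions outside the list (0.306% and 0.141%), so this is not particular to the members. CAGGTAG, the site of the early zygotic activator Zelda, occurred at 3 intergenic summits (1.06%, 0.219 to 3.07). It occurred at 0.404% of all IDR summits and in 0.471% of intergenic regions outside the list. The 3 were the peaks of lncRNA:CR45643 and tara, Glut3 and lncRNA:CR45750, and lncRNA:CR15061 and upd1. The last, upd1, is a ligand gene of the JAK/STAT pathway. No motif of the 21 was found at 175 of the 283 (61.8%, 55.9 to 67.5), beside 55.4% (53.2 to 57.7) of the other IDR summits and 57.9% (56.3 to 59.3) of intergenic regions outside the list. A match is a run of letters in the reference and not a bound site, and the lack of one says nothing about the factor.

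**Figure D5:**
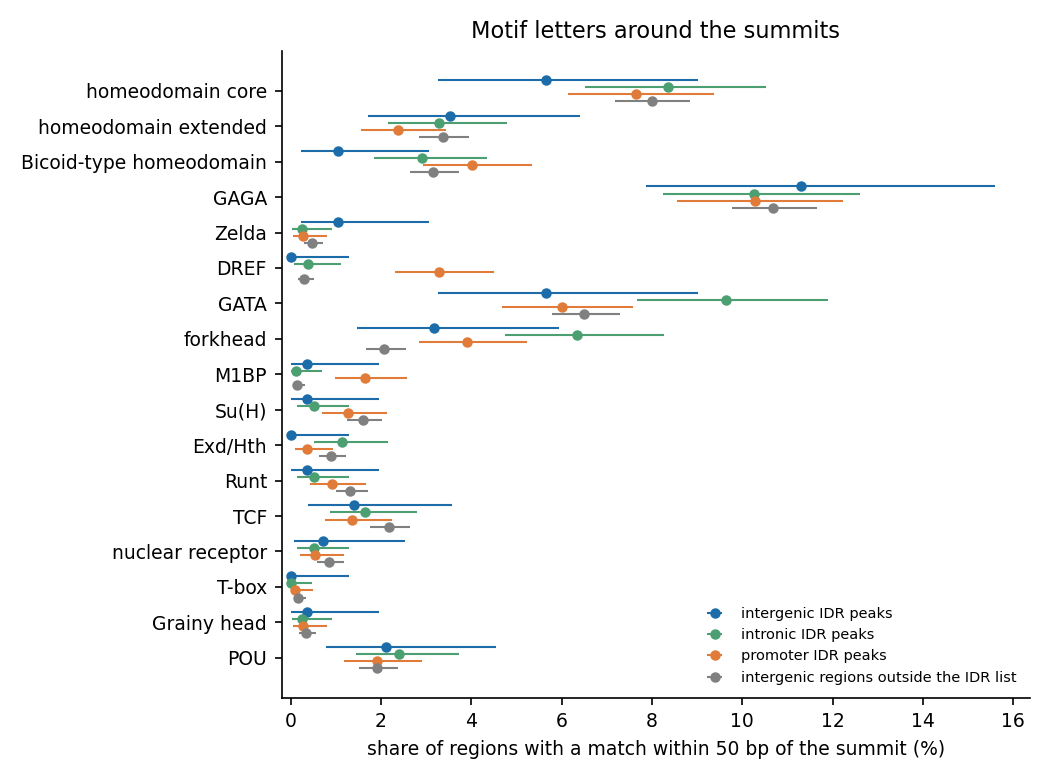
Share of summits with a motif match within 50 bp, in percent (x), for 17 motifs (y) and 4 sets of regions, with 95% exact binomial intervals. For the homeodomain core the intergenic IDR peaks stand at 5.65% and the intergenic regions outside the list at 7.99% with overlapping intervals, and for DREF the promoter peaks stand alone at 3.28%.

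In base composition the members were A+T-rich like the rest of the IDR list. The median G+C of the 101 bp around the summit was 35.6% (quartiles 30.7 and 40.6), beside 32.7% in intronic and 34.7% in promoter IDR peaks and 39.6% (32.7 to 46.5) in intergenic regions outside the list. Repeat-masked bases made up a median of 9.90% of the window, beside 17.8% outside. A summit lay in an annotated transposable element for 1 of 283 members (0.353%) and for 87 of 4242 regions outside (2.05%). Such summits were also rare in the rest of the IDR list, with 1 of 789 intronic, 2 of 1098 promoter and 4 of all 2226 peaks. This is thus not particular to the members.

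The rule cuts a continuous range of distances. The 5 members nearest to a TSS, at 505 to 521 bp, had pooled signals of 70.2 (CG6602), 76.5 (lncRNA:CR42657), 66.5 (CG42571), 66.0 (Ugt36D1) and 281 (CG17896). The 5 summits outside gene bodies just within the limit, at 493 to 499 bp, had 80.9 (peb), 206 (CG10479), 72.2 (nw), 77.6 (lncRNA:CR44828) and 85.1 (Sqor). Of 807 IDR summits outside gene bodies, 524 lay within 500 bp of a TSS and so are not members. The 5 weakest members had pooled signals of 65.1 and 65.6 between Eglp2 and retn, where both shared their replicate regions (26.7 and 44.8), 65.2 beside SoxN, 65.5 beside lncRNA:CR44799 and 65.6 beside CG42524. The 5 strongest intergenic regions left out of the IDR list had 65.1, 64.6, 64.4, 64.2 and 64.1, the first of them 4580 bp from the TSS of Doc2, and so were almost equal in signal to the weakest members.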

How the data were processed

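ChIP-seq peak lists of 2 biological replicates of 1 group were analysed. The authors' lists of 30000 regions for each replicate and for their pool held peaks and background as input for IDR and were called from alignments with a control file, per the text deposited with the files. Aligner, caller, IDR threshold and read depths: not given in the sources used here. The signal value deposited with each region was used as the authors gave it. The IDR list matched the 2226 pooled regions of highest signal. Coordinates are in dm6.

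Regions were placed on 18164 Ensembl BDGP6 genes, with 5809 transposable elements left out, on 6 chromosome arms, and sequence came from the RefSeq release 6 assembly. Overlap meant at least 1 bp. Motif letters were sought on both strands in 101 bp around each summit. Flanking genes are the nearest to each side. Shares have exact Clopper-Pearson intervals and densities exact Poisson intervals, both at 95%. Everything is descriptive, since 1 group allows no test between samples. The steps were checked on simulated regions. Members, 28 gene lists and 21 motifs were chosen with earlier results of these data known, and 3 genes that encode no complete homeodomain were taken out of the homeobox list after the counts were seen.

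Peaks were named by rule: the 20 strongest, the 5 farthest from a TSS, those nearest to the limits, the 3 largest groups and up to 4 genes of each list by signal. Other names, such as chinmo, were chosen after their values were seen. Python 3.11.15, numpy 2.4.6, pandas 2.3.3, SciPy 1.17.1 and matplotlib 3.10.9 were used. The alternatives tried were other distances, gene sets, windows, overlaps and joining distances, the upper part of the list, and leaving out each replicate.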

Additional observations from a re-analysis of the deposited data

How the results depend on the processing

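Of 74 alternative values, 58 stayed within the interval or spread of the reported value or, for counts, which have none, within 1.5 times of it. Another 16 moved and 0 reversed. Among those counts, 283 peaks became 415 with a promoter distance of 200 bp, 221 with 1000 bp and 354 with protein-coding genes only, and 30 groups became 20 when joined at 2 kb and 36 at 10 kb. With a promoter distance of 1000 bp the intergenic share was 9.93% and the median TSS distance 3581 bp, and with 200 bp they were 18.6% and 1226 bp. With protein-coding genes only they were 15.9% and 4106 bp, and with the whole peak outside genes and promoter windows 10.7% and 3039 bp. Among the 1113 strongest IDR peaks there were 129 intergenic peaks, with a median signal of 144, and 96.1% of them were among the strongest regions of both replicates. That share was 49.5% when 50% of both regions had to overlap. Over only the peaks strong in both replicates, an alternative added after the data were seen, the median signal was 119. The TAATTA share was 11.0% within 100 bp of the summit and 1.41% within 25 bp, and the median G+C was 36.8% within 100 bp. These shifts follow from the sets and windows so defined. To leave out each replicate, the 2226 strongest regions of the other replicate's own list were taken in place of the IDR list. These are other sets of regions and no check of the 283 members themselves. They gave 255 to 275 intergenic regions, a share of 11.5% to 12.4% and a median TSS distance of 2066 to 2492 bp. The TAATTA share was 5.10% to 7.64% and the median G+C 35.6%. The pooled signal could not be given from 1 replicate. No paired analysis was possible because there was only 1 group. Depth was unknown, so it could not be said which weak members depth limits.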
